A study of Drosophila melanogaster with 6 samples.

Results

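The segment polarity genes are the class of Drosophila patterning genes that act within every segment of the embryo. Of the 10 genes considered (en, inv, wg, hh, ptc, ci, smo, gsb, gsb-n and nkd), 9 were each represented by 1 probe set that the platform annotation names for that gene alone, which makes 9 of 18769 probe sets. They were taken by gene symbol, without regard to their signal. The Wnt ligand gene wg had no probe set of its own in that annotation and was not analysed here. RNA of whole embryos was hybridised to one-colour Affymetrix Drosophila Genome 2.0 arrays, with 3 arrays for trh null embryos and 3 for wild type embryos. The trh null embryos lacked trachealess, the bHLH-PAS factor that starts tracheal development, and were sorted by the absence of the GFP-marked balancer chromosome. The wild type embryos went through the same biosorter. Both genotypes were collected over 8 h, aged for 11 h and labelled stage 11 to 16, while the description of the wild type arrays has stage 17 as the end. The trh allele and the wild type strain are not given in the sources used here.

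Segment polarity genes maintain the boundaries between parasegments, the repeated units of the early embryo that are out of register with the later segments. Cells behind the boundary express the homeodomain factor Engrailed and secrete Hedgehog, and cells in front of it answer Hedgehog by keeping up Wingless, a Wnt ligand that in turn maintains engrailed. In late stages these signals pattern the epidermis into denticle belts and naked cuticle, and several of the same genes define rows of neuroblasts in the nervous system. Tracheal placodes form beside this grid, and segment polarity genes are also expressed in gut, brain and other tissues. In RNA from whole embryos, fewer cells that express a gene and less RNA per cell cannot be told apart.

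Values are log2 signals as deposited, and differences are trh null minus wild type. Each probe set was tested with limma's moderated test, and "rose", "fell" and "passed" refer to an adjusted p under 0.05 (Benjamini-Hochberg over all 18769 probe sets). Arrays have no count behind a value, so the number of arrays limits the precision. Nothing in the labels says whether arrays of a genotype came from separate collections, so each p-value reflects array-to-array spread that may be purely technical. The trh gene had no probe set of its own in the annotation either and was not analysed here, so the labels were not checked on the mutated gene. Median signals per array lay between 6.16 and 6.22. Wild type replicate 2 stood apart: Pearson's r between wild type arrays, over all probe sets, ran from 0.976 to 0.994 and was lowest for the pairs that included it, against 0.995 to 0.998 between trh null arrays. Control probe sets near the 3′ end were brighter than those near the 5′ end by 0.74 to 0.80 for actin on trh null arrays and by 1.30 to 1.46 on wild type arrays (difference of log2 signals). This sign of RNA integrity or labelling length moved with genotype, and its part in the results was not tested.

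In trh null embryos 3 of the 9 measured segment polarity genes rose: gsb, en and ptc. None fell, and the other 6 (inv, hh, ci, smo, gsb-n and nkd) did not pass. Over all probe sets 6.19% rose. The difference was above 0 for 9 of the 9 members, as it was for 48.6% of all probe sets. The median difference was 0.38 on the log2 scale for the members and -0.01 for all probe sets. All probe sets include dim ones, while the members' mean signals lay between percentiles 50.0 and 92.7. Without the 40% dimmest probe sets the median of the rest was 0.03. Every trh null array lay above every wild type array for 3 members (en, gsb and ptc), which holds for 17.7% of all probe sets. Without wild type replicate 2, 4 members rose (gsb-n in addition), and the differences of smo and nkd were below 0. In that fit 17.4% of all genes, each by its brightest probe set, rose, against 6.79% of genes with all 6 arrays.

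**Figure D1:**
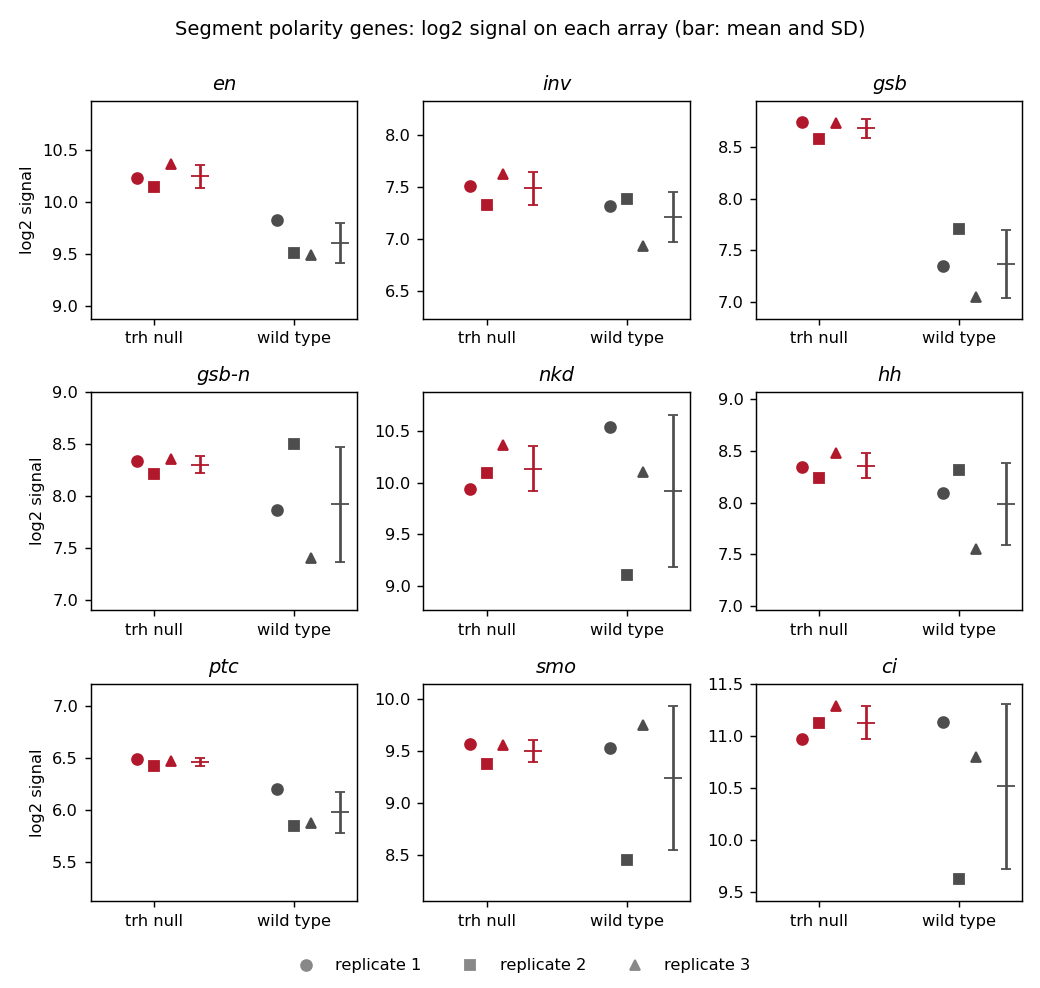
Log2 signal of the 9 measured segment polarity genes on each of the 3 trh null arrays (red, left) and 3 wild type arrays (grey, right); marker shapes are replicate numbers, bars are mean and SD, and each panel spans the same range of log2 units around its own middle. The groups are separated for en, gsb and ptc, and wild type replicate 2 is the lowest point for nkd, smo and ci and, narrowly, for ptc.

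The gene with the largest difference among the members was gsb (gooseberry), which encodes a Pax-type factor with a paired domain and a homeodomain. It is known to maintain wg in the epidermis and to specify neuroblasts of the wg-expressing rows. Its log2 signal was 8.73, 8.57 and 8.72 on the trh null arrays, against 7.35, 7.71 and 7.05 on the wild type arrays. The groups were separated by 0.86, more than the wild type range of 0.66. The gene was 2.47-fold higher in trh null embryos (95% interval 1.86 to 3.28), a log2 difference of 1.31 (SE 0.17, limma adjusted p = 0.00642). That difference exceeded those of 99.1% of all probe sets. It passed in each of the 12 alternative fits, with differences from 1.15 to 1.48 and limma adjusted p from 6.85e-05 to 0.0468.

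The neighbouring gene gsb-n (gooseberry-neuro) encodes a closely related Pax-type factor, used mainly in the nervous system downstream of gsb. It had log2 signals of 8.33, 8.21 and 8.36 on the trh null arrays and 7.87, 8.50 and 7.40 on the wild type arrays. Here wild type replicate 2 was above every trh null array and the other wild type arrays were below them. The difference was 0.38 (SE 0.26, 95% interval -0.26 to 1.02, limma adjusted p = 0.416). Without wild type replicate 2 it was 0.67 and passed (adjusted p = 0.0162). With that array weighted down by limma's array weights it was 0.47 (adjusted p = 0.0213).

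The pair could be compared within each array, as the log2 signal of gsb minus that of gsb-n. It compares how far the genes differed between genotypes, as far as both probe sets respond alike to a change. It was 0.40, 0.36 and 0.36 on the trh null arrays and -0.51, -0.80 and -0.35 on the wild type arrays. The groups did not overlap, and the mean was higher by 0.93 in trh null embryos. With 3 arrays against 3 an exact two-sided permutation test cannot go below p = 0.1, the value it gave here. Over the 6 pairs of members compared in this way, that is an adjusted p of 0.3. Wild type replicate 2, high for both genes, was the farthest from the trh null arrays on this ratio.

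The homeodomain factor Engrailed (en) is the selector of the posterior compartment, where it turns on hh and represses ci and ptc. Its log2 signal was 10.24, 10.15 and 10.37 on the trh null arrays, against 9.83, 9.51 and 9.49 on the wild type arrays. The groups were apart by 0.32, about as far as the wild type arrays differed among themselves (a range of 0.34). The gene was 1.56-fold higher in trh null embryos (95% interval 1.27 to 1.91), a log2 difference of 0.64 (SE 0.12, limma adjusted p = 0.0217). It no longer passed when wild type replicate 3 was left out (adjusted p = 0.0581) or when trh null replicate 1, 2 or 3 was (0.0869, 0.0715 and 0.1035), with differences of 0.58 to 0.69. It still passed when wild type replicate 2 was left out (0.59, adjusted p = 0.0152).

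The gene inv (invected) lies beside en, encodes its homeodomain paralogue and is expressed in much the same cells. Its log2 signal was 7.51, 7.32 and 7.63 on the trh null arrays and 7.31, 7.38 and 6.93 on the wild type arrays. The groups overlapped by 0.06, since wild type replicate 2 was just above trh null replicate 2. The difference of 0.28 (SE 0.15, 95% interval -0.08 to 0.63) did not pass (limma adjusted p = 0.287), nor did it in any of the 12 alternatives.

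Within each array, en minus inv was 2.73, 2.83 and 2.74 on the trh null arrays and 2.52, 2.13 and 2.56 on the wild type arrays. The groups did not overlap, and the mean was 0.36 higher in trh null embryos (exact two-sided permutation p = 0.1, the smallest possible, and 0.3 adjusted over the 6 pairs). As for gsb and gsb-n, the wild type arrays spread more than the trh null arrays.

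**Figure D2:**
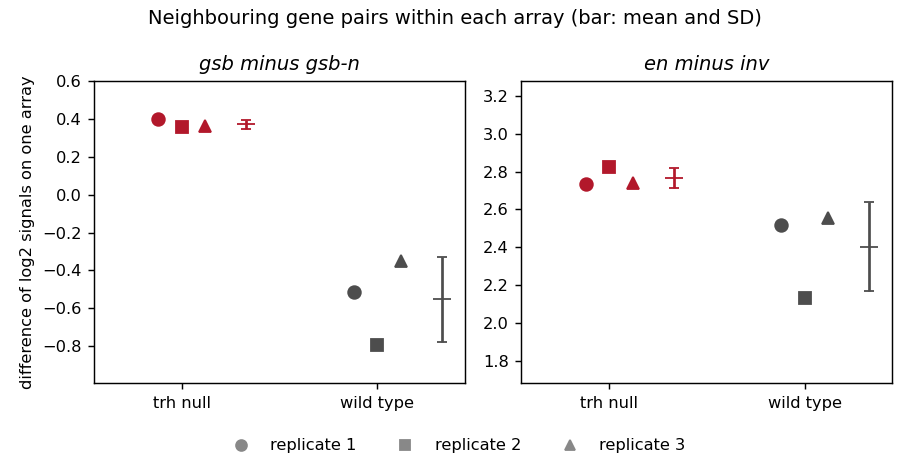
Difference of the log2 signals of neighbouring genes on the same array, for gsb minus gsb-n (left panel) and en minus inv (right panel), with trh null arrays in red left of wild type arrays in grey; bars are mean and SD over 3 arrays. In both panels the 3 trh null points lie above all wild type points, with a mean difference of 0.93 for gsb minus gsb-n and 0.36 for en minus inv.

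The ligand gene hh (hedgehog) had log2 signals of 8.34, 8.24 and 8.48 on the trh null arrays, against 8.09, 8.31 and 7.55 on the wild type arrays. Wild type replicate 2 lay within the trh null range and wild type replicate 3 was the lowest of the 6 arrays. The difference was 0.37 (SE 0.20, 95% interval -0.11 to 0.85, limma adjusted p = 0.297). It was 0.53 without wild type replicate 2 (adjusted p = 0.0585) and 0.15 without wild type replicate 3 (adjusted p = 0.474), so it did not pass in either case. The within-array value of en minus hh, a gene and its target in the same cells, averaged 1.90 on trh null arrays and 1.62 on wild type arrays, and the groups overlapped (exact two-sided permutation p = 0.4, adjusted p = 0.8).

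The receptor gene ptc (patched) is both the inhibitor of Smoothened and a standard target of the pathway, so that its transcript follows Hedgehog signalling in many tissues. Its log2 signal was 6.49, 6.42 and 6.47 on the trh null arrays and 6.20, 5.85 and 5.88 on the wild type arrays. The groups were apart by 0.22, less than the wild type range of 0.36. The gene was 1.40-fold higher in trh null embryos (95% interval 1.16 to 1.69), a log2 difference of 0.49 (SE 0.11, limma adjusted p = 0.0412). Like en, it no longer passed when wild type replicate 3 (adjusted p = 0.102) or trh null replicate 1, 2 or 3 (0.148, 0.132 and 0.154) was left out. It still passed when wild type replicate 2 was left out (0.42, adjusted p = 0.0309) and with array weights (0.32, adjusted p = 0.0234). The mean signal of this probe set over the 6 arrays was above that of 50.0% of all probe sets, the lowest rank among the members. Its wild type signals were below the median of the mean signals of all probe sets (6.21), so the size of this rise is uncertain.

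The transducers downstream of Patched did not pass. The membrane protein gene smo (smoothened), which passes the signal into the cell, had 9.57, 9.38 and 9.56 on the trh null arrays and 9.53, 8.46 and 9.75 on the wild type arrays (log2 signals). Only wild type replicate 2 was below the trh null arrays, and replicate 3 was above them. The difference of 0.26 (SE 0.33, 95% interval -0.53 to 1.04, limma adjusted p = 0.674) had the opposite sign without wild type replicate 2 (-0.14, adjusted p = 0.373).

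The gene ci (cubitus interruptus) encodes the zinc finger factor that carries the Hedgehog response in the nucleus. Its log2 signals were 10.98, 11.12 and 11.29 on the trh null arrays and 11.14, 9.62 and 10.79 on the wild type arrays. Wild type replicate 1 lay inside the trh null range and wild type replicate 2 was lower than the other wild type arrays by 1.34 on average. The difference was 0.61 (SE 0.38, 95% interval -0.30 to 1.52, limma adjusted p = 0.356). It was 0.16 without wild type replicate 2 (adjusted p = 0.428).

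Set against the receptor within each array, ptc minus hh, ptc minus smo and ptc minus ci differed between genotypes by 0.12, 0.23 and -0.12 on average, with overlapping groups (exact two-sided permutation p = 0.8, 0.7 and 1, adjusted p = 0.96, 0.96 and 1). Unequal change of ptc and these pathway members was therefore not shown at this precision, and the lower signal of the ptc probe set may also shrink its part in these values.

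On the Wnt side the only measured member was nkd (naked cuticle), an antagonist that binds Dishevelled and is itself turned on by Wingless signalling. Its log2 signals were 9.94, 10.09 and 10.37 on the trh null arrays and 10.54, 9.11 and 10.10 on the wild type arrays. The lowest and the highest array were both wild type. The difference of 0.22 (SE 0.36, 95% interval -0.64 to 1.07, limma adjusted p = 0.754) was -0.19 without wild type replicate 2 (adjusted p = 0.464).

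**Figure D3:**
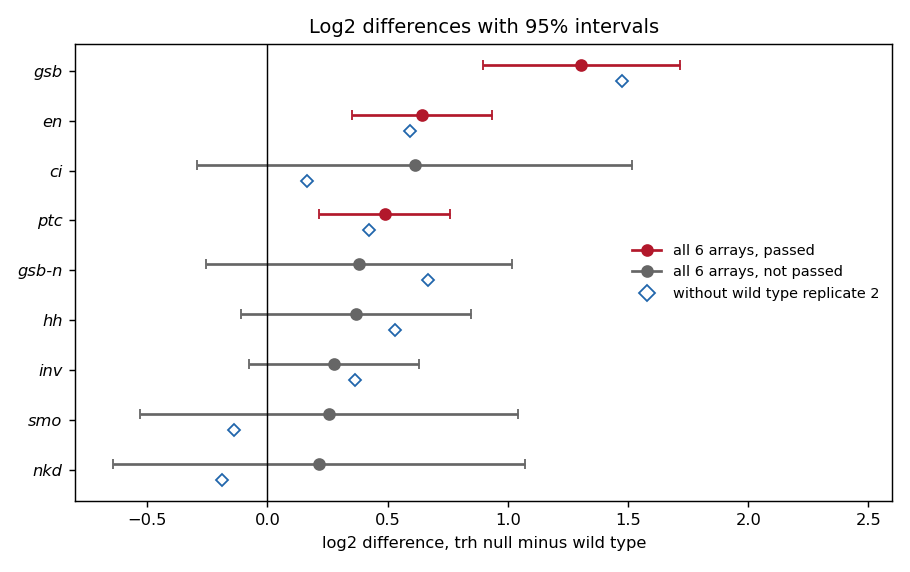
Log2 difference between trh null and wild type arrays for the 9 measured segment polarity genes, with 95% intervals from all 6 arrays (circles, red where the gene passed), and the difference without wild type replicate 2 (open diamonds). The intervals of gsb, en and ptc lie above 0, and the diamonds of smo and nkd lie below it.

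The members deviated in different directions on wild type replicate 2. Compared with the mean of the other wild type arrays its signal was lower by 1.34 for ci, 1.21 for nkd and 1.18 for smo. It was higher by 0.87 for gsb-n, 0.51 for gsb, 0.49 for hh and 0.26 for inv. For en (-0.15) and ptc (-0.19) the deviation was smaller, near the median size of 0.22 over all probe sets. The SD among trh null arrays was below the SD among wild type arrays for 9 of the 9 members, and for 78.4% of all probe sets. Trh null SDs ran from 0.04 (ptc) to 0.22 (nkd), and wild type SDs from 0.19 (en) to 0.79 (ci).

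Markers of tissues and stages moved between the genotypes as well. Over all genes 6.79% rose and 7.31% fell. Of the genes listed as early embryo markers (bcd, hb, ftz, Kr, sna and twi), 4 of 6 rose and none fell. Whether they mark age in embryos of the stages used here was not tested. Their summed linear signal was 3115 to 3443 on trh null arrays and 1604 to 2710 on wild type arrays. The largest part of that sum was sna, with log2 signals of 10.88 to 10.96 on trh null and 9.63 to 10.38 on wild type arrays. Of 4 measured central nervous system markers none passed, but their summed signal was 5326 to 6188 on trh null arrays, against 2019 to 3905 on wild type arrays. The difference of that sum came mainly from the neuronal gene elav (log2 difference 1.65, limma adjusted p = 0.0819), while brp, nSyb and the glial gene repo had log2 differences of 0.56, 0.10 and -0.09. For somatic muscle 2 of 3 fell (3419 to 4378, against 6844 to 10168 on wild type arrays), and for trachea 2 of 5 fell (11655 to 13515, against 17954 to 23295). The tracheal genes that fell were Gasp and btl (log2 differences -1.53 and -1.38). The differences of obst-A, verm and serp, which did not pass, were -0.76, -0.32 and -0.25. Of the hemocyte markers 1 of 4 rose (2287 to 2395, against 1384 to 1522 on wild type arrays), namely Pxn, by 0.94, which carried the difference of the sum. NimC1, crq and Hml had log2 differences of 0.33, -0.04 and -0.08. In the epidermis and cuticle list 1 of 6 rose and 1 fell (6749 to 7475, against 6228 to 7820), and in the salivary gland list 1 of 3 rose (3736 to 4277, against 3280 to 4015). None of 3 germ line markers (312 to 387, against 263 to 353) and none of 3 late embryo markers (211 to 318, against 177 to 390) passed. The late markers Ccap and Jon25Bi were dim (log2 signals of 5.35 to 6.39). Cpr65Ec varied widely within each genotype, from 6.32 to 7.84 on trh null and from 6.40 to 8.17 on wild type arrays. No marker is at 0 on this scale, where the lowest value was 4.56. Without wild type replicate 2 more markers passed. Of the central nervous system markers 2 rose, elav by 1.88 and brp by 0.42 (limma adjusted p = 0.0357 and 0.0214). For trachea 4 of 5 fell, for somatic muscle 3 of 3, and in the epidermis and cuticle list 3 of 6, with 1 rising. The counts of the other marker lists stayed the same. In that fit 17.4% of all genes rose and 14.8% fell. From the early embryo list, ftz, Kr, sna and twi rose together with gsb, en and ptc. A difference in age or in tissue content, and its part in the rise of gsb, en and ptc, was not tested. The other genes of that list did not pass (hb 0.46, bcd -0.51).

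The wider Hedgehog pathway was followed through 24 listed genes, of which 19 were measured, each by its brightest probe set. In trh null embryos 3 rose and 1 fell, while 15 did not pass. Over all 11981 genes 6.79% rose and 7.31% fell. The median difference of the list was 0.18 (0.10 without wild type replicate 2), against 0.00 for all genes (0.03). The co-receptor gene ihog (interference hedgehog), whose product binds Hedgehog together with Patched, had log2 signals of 10.17, 10.01 and 10.15 on trh null arrays and 9.27, 9.36 and 9.12 on wild type arrays. The arrays of the genotypes were well apart, and the gene rose 1.82-fold (log2 difference 0.86, SE 0.10, limma adjusted p = 0.00364). Its relative boi, with the same role, had a difference of -0.10 (SE 0.19, adjusted p = 0.784) and 0.08 without wild type replicate 2; the difference between these genes was not tested.

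Ubr3, an E3 ubiquitin ligase gene whose product acts on the kinesin-like scaffold Costal-2, was at 9.21 ± 0.09 in trh null and 7.80 ± 0.09 in wild type embryos (log2 signal, SD, n = 3 arrays), a difference of 1.41 (SE 0.09, limma adjusted p = 0.000628). Another probe set of Ubr3 rose by 1.60, and a dim one, at a mean signal of 4.99, had a difference of -0.13 (adjusted p = 0.444). The mean over the probe sets of Ubr3 rose by 0.96. The F-box gene slmb (supernumerary limbs), needed for the processing of Ci, rose by 0.56 (SE 0.08, limma adjusted p = 0.0102), a call lost without trh null replicate 2 or 3 (0.0568 and 0.0557). Usp8, for a deubiquitinase of Smoothened, fell by 0.39 (SE 0.08, limma adjusted p = 0.0312). That call was lost with any array but wild type replicate 2 left out (0.0546 to 0.134) and with the trend and robust prior (0.111). The kinase gene Gprk2, which acts on Smoothened, had a difference of -0.93 (SE 0.25, adjusted p = 0.0653) and passed without wild type replicate 2 (-1.23, adjusted p = 0.000335). In that fit 5 of the list rose and 4 fell, beside 17.4% and 14.8% of all genes.

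Of 29 listed genes of the Wnt pathway 11 were measured, of which 2 rose, 1 fell and 8 did not pass, beside 6.79% of all genes that rose and 7.31% that fell. Those not measured included fz, fz2, arr, dsh, Apc, sgg, arm and pan, so receptors and transducers of Wingless were largely not covered. The median difference of the measured genes was 0.37. The receptor gene Drl-2, of the Ryk family, was at 7.65 ± 0.17 in trh null and 5.90 ± 0.33 in wild type embryos (log2 signal, SD, n = 3 arrays) and rose 3.35-fold by its brightest probe set (limma adjusted p = 0.00294). Its second probe set, with a mean signal of 5.21, had a difference of -0.31 (adjusted p = 0.178), and the mean over both rose by 0.72, where the brightest alone gave 1.74. The wild type signals of the brightest, 5.54 to 6.19, were below the median of the mean signals of all probe sets (6.21), so the size of this rise is uncertain. Notum, an enzyme that removes the lipid from Wnt ligands and is induced by Wingless, rose by 0.64 (SE 0.11, limma adjusted p = 0.0170). Swim, a secreted protein that binds Wingless, fell by 0.70 (SE 0.12, limma adjusted p = 0.0169). Notum no longer passed when any trh null array was dropped (0.0625 to 0.0845), nor did Swim without trh null replicate 1 or 3 (0.0667 and 0.0792). Without wild type replicate 2, 4 rose and 2 fell, beside 17.4% and 14.8% of all genes.

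Among 12 measured of 17 genes listed for ventral epidermal patterning downstream of wg and hh, 4 rose and 8 did not pass, with a median difference of 0.14. Over all genes 6.79% rose and 7.31% fell. The gene ovo, whose shavenbaby product directs denticle formation and is repressed by Wingless, rose by 0.83 (SE 0.11, limma adjusted p = 0.00778). The forkhead gene slp2 rose by 0.77, the zinc finger gene tio by 0.73 and its paralogue tsh (teashirt) by 0.66 (SE 0.17, 0.15 and 0.15, limma adjusted p = 0.0371, 0.0275 and 0.0397). The call for ovo was lost without trh null replicate 3 (0.0509). Those for slp2 and tsh were lost without wild type replicate 3 (0.0944 and 0.0856), without each of the trh null arrays (0.102 to 0.156) and with cyclic loess (0.0569 and 0.0858). The wild type signal of tio was 4.68 to 4.94, and its probe set was, like that of ftz, among the 40% dimmest by mean signal, so the size of its rise is uncertain. Its call was lost without wild type replicate 1 or 3 (0.0602 and 0.0700) and without trh null replicate 2 or 3 (0.117 and 0.116). Without wild type replicate 2, 4 of the list rose and 2 fell, beside 17.4% and 14.8% of all genes.

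Of 7 measured of 8 Pax relatives of gsb, 1 rose: eyg (eyegone), a Pax-type gene of the eye and salivary duct, was higher by 0.74 (SE 0.11, limma adjusted p = 0.0110), a call lost without trh null replicate 1 or 3 (0.0577 and 0.0653). The head and brain gene toy (twin of eyeless) had a difference of 0.90 that did not pass (SE 0.44, adjusted p = 0.250) and was 0.37 without wild type replicate 2. The median of the list was 0.32. Without wild type replicate 2 it was 0.19, and 2 rose. Of 7 measured of 9 pair-rule genes, which set up the stripes of en and wg before stage 11, ftz and slp2 rose and 5 did not pass. The slp2 result is the same one counted in the ventral epidermis list, with the lost calls given there. The median was 0.45 (0.17 without wild type replicate 2, where 2 rose and 1 fell). Beside both lists, 6.79% of all genes rose and 7.31% fell, and 17.4% and 14.8% without wild type replicate 2. The homeodomain gene ftz (fushi tarazu) had log2 signals of 6.23, 5.89 and 5.99 on trh null arrays, against 5.11, 4.56 and 4.80 on wild type arrays. This probe set was among the 40% dimmest by mean signal, and a wild type level above background was not shown. The fitted rise of 1.22 (SE 0.16, limma adjusted p = 0.00698) is of uncertain size.

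**Figure D4:**
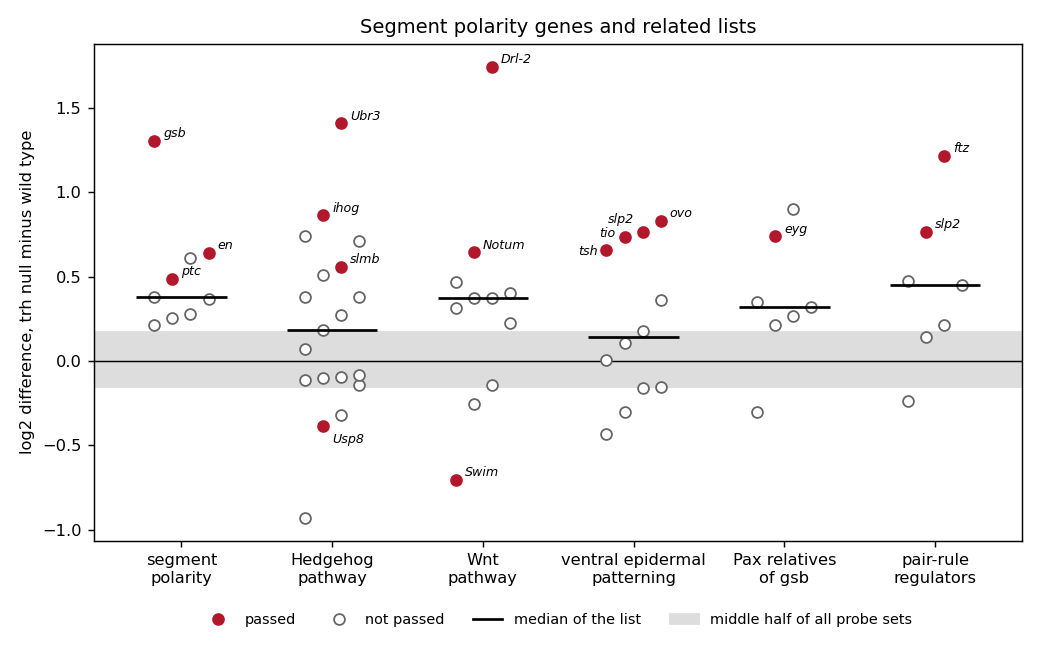
Log2 difference between trh null and wild type arrays for each measured segment polarity gene and each measured gene of 5 related lists, with genes that passed in red and named, medians as black lines and the range between the quartiles of all probe sets (-0.16 to 0.17) in grey. The medians of the lists lie between 0.14 and 0.45, and gsb, Ubr3, Drl-2 and ftz are above 1.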

How the data were processed

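The deposited table held log2 RMA values of 6 arrays; the submitters' processing notes name RMA and Partek without versions, and base 2 was inferred from the range. RMA as generally run makes array distributions alike, so a change shared by all transcripts would be hidden. Of 18952 probe sets, 183 Affymetrix controls were left out. The platform annotation named 1 gene for 13646 of the others, several for 402 and none for 4721. Chromosome neighbours came from the RefSeq gene table of Release 6. Sequences were not used here. Arrays were assigned to genotypes by their titles, which read wild type or trh sorted and do not themselves say null.

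All 18769 probe sets were fitted with limma 3.58.1 (lmFit, eBayes; R 4.3.3) on genotype alone. The fit was tested on simulated data. The genes and the 5 related lists were chosen from general knowledge with earlier results of these data known, and gene lists got no test of their own. In the Wnt list 1 symbol was an older name of Notum and was dropped. Named list genes were those that passed, at most 6 per list, and the largest otherwise; boi, Gprk2 and the individual markers were chosen after their values were seen. Alternatives were a trend and robust prior, cyclic loess, median centring, leaving out the 40% dimmest probe sets, array weights, the replicate number as a block, the mean over probe sets, and leaving out each array. Figures were drawn with matplotlib 3.10.9.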

Additional observations from a re-analysis of the deposited data

How the results depend on the processing

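Of 18769 probe sets 2219 passed. This was 726 with the replicate number as a block, 6003 with array weights (weight 0.136 for wild type replicate 2, the lowest) and 704 to 5001 with 1 array left out. The 704 came without trh null replicate 3 and the 5001 without wild type replicate 2. In place of 3 segment polarity genes, 1 passed with the block and 1 to 4 with an array left out: gsb alone without wild type replicate 3 or any trh null array, and 4 without wild type replicate 2. In place of 13 of 53 list genes, 6 passed with the block, 26 with array weights and 4 to 24 with an array left out. Leaving out an array also leaves fewer arrays to estimate the spread. Same-numbered arrays did not deviate together (correlation of deviations from the genotype means -0.37, -0.06 and -0.05). With 3 arrays per genotype this cannot decide whether the numbers pair the arrays, and the labels do not say. With the block the limma adjusted p was 0.0468 for gsb, 0.0802 for en and 0.0987 for ptc. The differences of smo and nkd changed sign with array weights (-0.030 and -0.24) and without wild type replicate 2, neither passing; with 1 array left out they ranged from -0.14 to 0.51 for smo and from -0.19 to 0.53 for nkd; the cause was not tested. With the trend and robust prior, cyclic loess, median centring or without the dimmest probe sets, gsb, en and ptc passed and no other segment polarity gene did; ftz and tio were among the dimmest left out. The lowest mean signal, that of ptc, was close to the median of all probe sets.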

Other observations

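The nearest gene with a probe set was taken on either side of each member, by gene midpoint in the RefSeq table. Leaving out members that neighbour each other gave 14 genes, a choice made after the members' values were seen. Of these 1 rose and 1 fell in trh null embryos, with a median difference of 0.02; that is 1 of 14 in each direction, near the 6.79% and 7.31% of all genes that rose and fell, and so not a result about these neighbours. CG17078, beside smo, was at 9.46 ± 0.10 in trh null and 8.87 ± 0.16 in wild type embryos (log2 signal, SD, n = 3 arrays), a rise by 0.59 (limma adjusted p = 0.0194). Nplp1, a neuropeptide precursor gene beside gsb-n, was at 6.51 ± 0.14 in trh null and 7.41 ± 0.27 in wild type embryos and fell by 0.90 (limma adjusted p = 0.0151). The gene on the other side of gsb, gol, had a difference of 0.08 (adjusted p = 0.899), and that on the other side of en, Egm, -0.13 (adjusted p = 0.715).

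The genes whose values over the 6 arrays, centred on their own mean, were nearest to those of en were twi, the mesodermal bHLH gene, CG32486 and CG7131. Their root mean square difference from en was 0.03, 0.04 and 0.05 on the log2 scale. For hh the nearest were CG34165, CG1671 and insb, at 0.05, 0.06 and 0.06. Over 6 arrays of 2 genotypes such likeness is a description.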
